A study of Homo sapiens with 8 samples.

Results

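The 39 genes described here encode structural, contractile and calcium-handling proteins of striated muscle. They were taken as a named list of muscle genes and looked up among the 63241 gene rows of the count table, where all 39 were found. MYLPF was found through its present RefSeq name, MYL11, and the other 38 under their listed symbols. The genes were sorted by role into 2 giant proteins, 3 M-band proteins, 4 thin-filament proteins, 11 Z-disc proteins, 5 myosin light-chain genes (4 chains and their kinase), 3 genes of energy and oxygen supply, 2 ubiquitin ligases and 9 genes of calcium release. The study sequenced RNA from 8 libraries, all of which carry the label HSC3, the name of an established cell line of human oral squamous carcinoma, and its title asks what loss of COL1A1, the gene of the type I collagen alpha 1 chain, does to these cells. Per the labels, 4 libraries are knockdowns that received the siRNA si-Col1a1 and 4 are controls that received the siRNA si-NC, each at 100 pmol, and all were collected after 48 hours. Libraries are called by label and number (knockdown 1 to 4, control 1 to 4), and lists of values follow that numbering. Nothing in the labels ties the libraries to separate cultures. Each p-value therefore reflects the spread among these 8 libraries alone, which may be technical.

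In striated muscle, thin filaments of actin slide past thick filaments of myosin within a repeating unit, the sarcomere. Z-discs anchor the thin filaments at the ends of the unit, the M-band links the thick filaments at its centre, and titin spans the distance between Z-disc and M-band. An action potential reaches the voltage sensor in the transverse tubule, the ryanodine receptor opens in the adjoining sarcoplasmic reticulum, and the released calcium lets the filaments slide. In skeletal muscle such as that of the tongue, slow and fast fibres use different forms of many of these proteins, whereas carcinoma lines are not known for expressing them as a set.

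Total counts ran from 30684584 to 61795990 per library. COL1A1 had 368, 123, 301 and 155 CPM (counts scaled to a fixed library total) in the knockdown libraries, against 88.9, 8183, 476 and 689 CPM in the control libraries. Its level in control 1 was below that in every knockdown library, and the fitted log2 fold change of -2.97 (SE 1.3) had an edgeR adjusted p of 0.981, so the target gene goes against at least 1 label, and every group below is named by its label only. A list of 12 markers chosen for a squamous carcinoma line took 13.8%, 0.197%, 12.1% and 2.67% of counts in the knockdown libraries, against 0.0869%, 6.18%, 1.01% and 5.72% in the control libraries. Every marker of that list had reads in every library, though knockdown 2 and control 1 held little of KRT6A (67.6 and 10.4 CPM) and KRT14 (531 and 281 CPM), the markers with the most reads, which reached 42475 and 32387 CPM in knockdown 1. The list did not move together. EPCAM had 9.73, 89.8, 2.99 and 4.06 CPM in the knockdown libraries, against 25.1, 10.2, 5.68 and 37.7 CPM in the control libraries. ITGA6 had 627, 301, 264 and 175 CPM in the knockdown libraries, against 176, 511, 254 and 356 CPM in the control libraries.

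The 39 muscle genes together took from 0.0248% to 14.8% of all counts, and libraries of the same label stood far apart. Their summed share was 0.0382% in knockdown 1, 3.89% in knockdown 2, 0.0248% in knockdown 3 and 4.62% in knockdown 4. The control libraries held 14.8%, 0.479%, 14.3% and 0.0816%. High and low libraries thus occurred under both labels and the ranges overlapped: the share averaged 2.14% ± 2.46 in knockdown libraries and 7.41% ± 8.24 in control libraries (SD, n = 4 each). Leaving out knockdown 4 brought the knockdown mean to 1.32%, and leaving out control 1 brought the control mean to 4.95%. Counting error was small beside these gaps, with a Wilson 95% interval of 0.0243% to 0.0253% in knockdown 3. These are bulk samples, in which fewer cells of a type and less RNA per cell cannot be told apart.

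**Figure D1:**
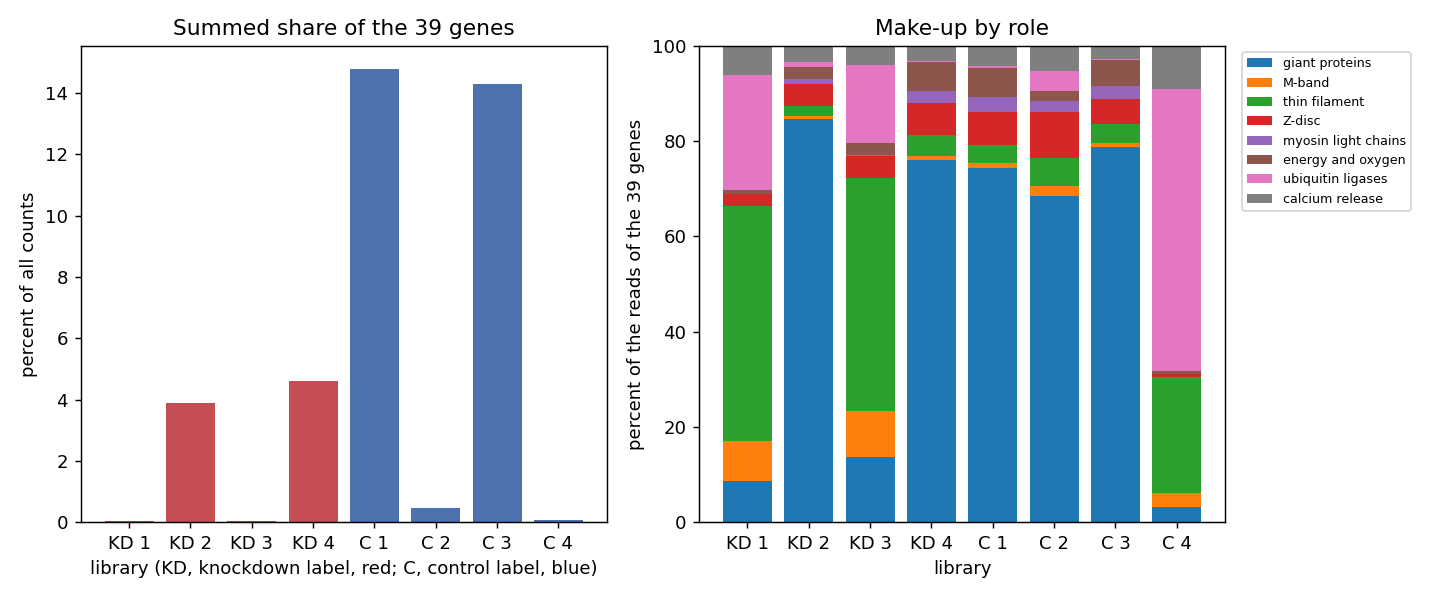
Left, percent of all counts taken by the 39 genes in each library (KD, knockdown label, red; C, control label, blue). Right, percent of those genes' reads that fell to each role in the same libraries. Knockdowns 2 and 4 stand at 3.89% and 4.62% and controls 1 and 3 at 14.8% and 14.3%, and giant proteins fill most of the bar in those 4 libraries and in control 2.

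The same 4 libraries led for nearly every gene. For 36 of the 39 genes the highest 4 libraries were knockdown 2, knockdown 4, control 1 and control 3, and control 2 came next. The exceptions were TPM3, ACTN3 and FBXO32. The highest single library was control 1 for 25 genes and control 3 for 14. In knockdown 1, knockdown 3 and control 4, 23 genes stayed under 1 CPM in all 3 libraries. Another 9 reached 1 CPM or more in each of these 3, namely TTN, NEB, MYOM3, TPM3, FLNC, MB, FBXO32, RYR1 and JPH1. No read was counted for 2 genes in knockdown 1, 7 in knockdown 3, 1 in control 3 and 5 in control 4. A count of 0 allows up to 3 reads, which is 0.0498 CPM in knockdown 1, 0.0823 CPM in knockdown 3, 0.093 CPM in control 3 and 0.0577 CPM in control 4.

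**Figure D2:**
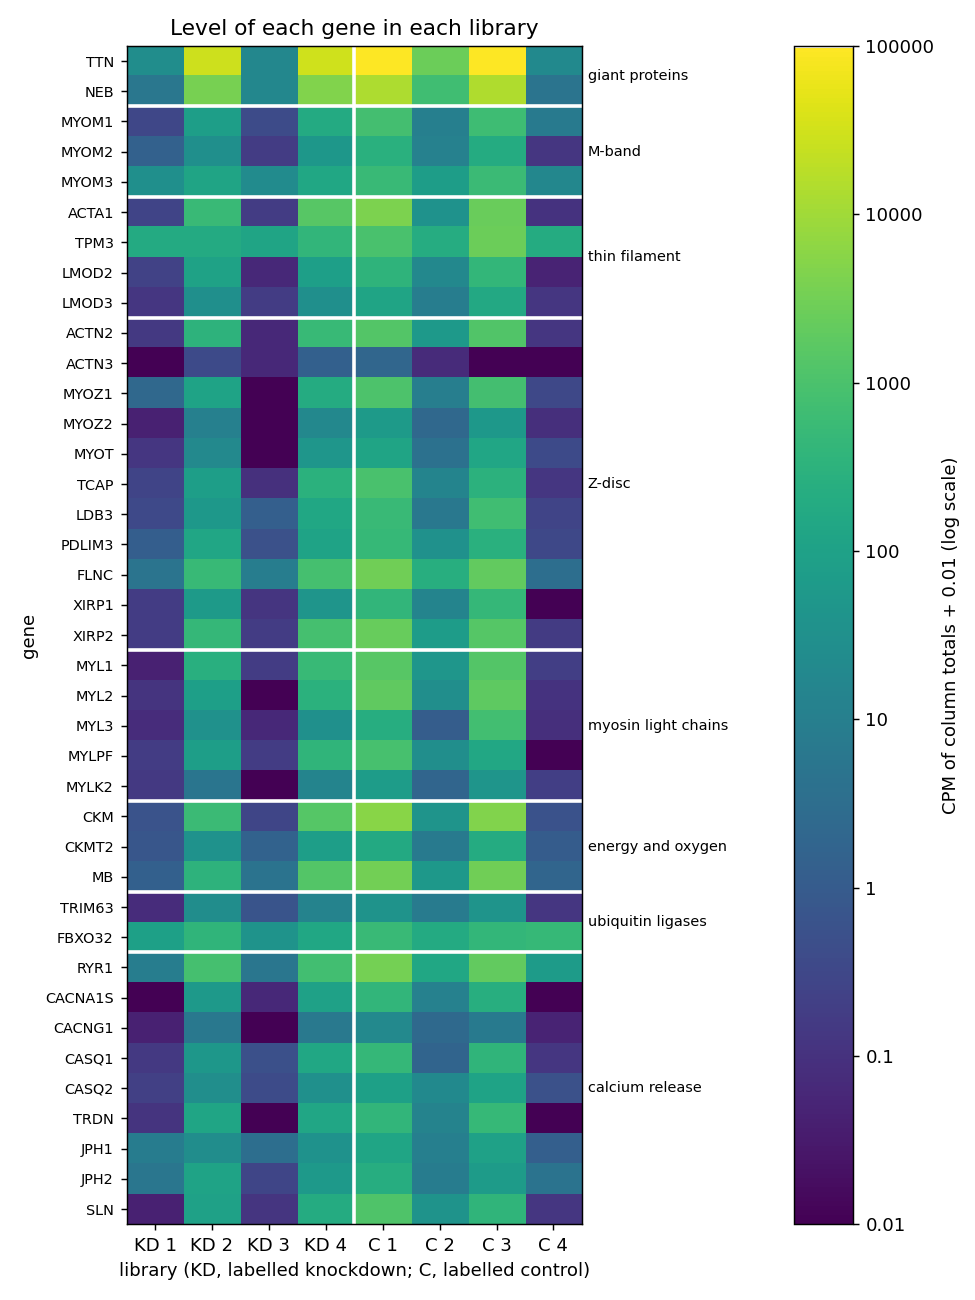
Level of each of the 39 genes (rows, grouped by role) in each library (columns; KD, knockdown label; C, control label), as CPM of column totals plus 0.01 on a log colour scale. The columns of knockdown 2, knockdown 4, control 1 and control 3 are bright for 36 genes, while TPM3 and FBXO32 stay at 39.6 CPM or more in every library and ACTN3 stays at 2.01 CPM or less.

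Start regions of 4 of the genes are shown because these genes stand at the ends of the range: TTN, CKM and ACTA1 took many reads and were spread unevenly over the libraries, while TPM3 was among the most evenly spread. The sequences are RefSeq's on GRCh38.p14, each 300 bases on the minus strand, 250 before and 50 from the start used. TPM3 is given by the upstream of the 2 RefSeq starts matched. The TTN and TPM3 starts of RefSeq lie inside the GENCODE 29 gene spans given further on. Their windows therefore do not reach the upstream ends of those spans, where a further start would not have been searched. Capitals mark matches to the motifs searched, read on both strands: the E-box forms CAGCTG and CACCTG, the CATTCC element bound by TEAD factors, the TATAAA element on the gene's strand only, and the MEF2 motif, named here without its letters.
TTN (chr2:178807374-178807673): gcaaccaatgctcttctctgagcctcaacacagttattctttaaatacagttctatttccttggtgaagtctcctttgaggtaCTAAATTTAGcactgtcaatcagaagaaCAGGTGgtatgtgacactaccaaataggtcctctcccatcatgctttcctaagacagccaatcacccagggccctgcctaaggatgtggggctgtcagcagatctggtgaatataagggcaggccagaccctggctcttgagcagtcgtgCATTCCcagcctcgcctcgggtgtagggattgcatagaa
ACTA1 (chr1:229434045-229434344): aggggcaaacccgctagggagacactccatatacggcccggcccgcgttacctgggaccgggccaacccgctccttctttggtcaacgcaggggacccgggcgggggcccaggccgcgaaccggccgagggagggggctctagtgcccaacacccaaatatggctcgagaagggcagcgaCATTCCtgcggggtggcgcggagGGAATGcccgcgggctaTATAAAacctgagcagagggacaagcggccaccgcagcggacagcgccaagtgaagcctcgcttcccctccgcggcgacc
CKM (chr19:45322826-45323125): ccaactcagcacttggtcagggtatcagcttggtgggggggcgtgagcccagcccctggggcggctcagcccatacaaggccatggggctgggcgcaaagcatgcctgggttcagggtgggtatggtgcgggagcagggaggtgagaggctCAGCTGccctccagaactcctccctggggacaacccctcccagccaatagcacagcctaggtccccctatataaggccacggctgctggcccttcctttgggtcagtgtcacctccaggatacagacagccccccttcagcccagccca
TPM3 (chr1:154183169-154183468): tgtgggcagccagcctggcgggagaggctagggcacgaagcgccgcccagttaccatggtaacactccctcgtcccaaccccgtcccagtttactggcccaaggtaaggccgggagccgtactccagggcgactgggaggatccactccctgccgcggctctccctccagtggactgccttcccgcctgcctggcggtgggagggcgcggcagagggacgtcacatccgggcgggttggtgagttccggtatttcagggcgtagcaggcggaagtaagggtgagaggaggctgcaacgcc

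With the start as base 1 and the base before it as -1, the TTN window held the MEF2 motif at -167, CACCTG (as CAGGTG on this strand) at -139 and CATTCC at 12. The ACTA1 window held CATTCC at -70, again at -47 as its reverse complement, and TATAAA at -30. CKM had CAGCTG at -99, and neither TPM3 window matched any of the motifs. The upstream end of the TPM3 span lies outside both windows and was not searched. RefSeq windows were matched for 30 of the 39 genes, 38 windows in all. The MEF2 motif was in 21.1% of those windows, against 1.86% of all 35116 windows of the same length. The MEF2 windows belonged to CASQ2, MYL1, MYOM3, MYOZ1, MYOZ2, TTN, XIRP1 and XIRP2. CAGCTG was in 31.6% of the muscle-gene windows against 17.9% of all, CACCTG in 26.3% against 20.6%, CATTCC in 23.7% against 14%, and TATAAA in 7.89% against 7.33%. Both E-box forms were counted apart, and TATAAA can share letters with the MEF2 motif. A match describes these letters and is not a measured binding site.

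The giant proteins took the most reads. TTN (chr2:178525989-178830802, minus strand, GRCh38) encodes titin, the elastic filament from Z-disc to M-band. It had 27.3, 29389, 17.4 and 30587 CPM in the knockdown libraries, against 96282, 2585, 97646 and 21.2 CPM in the control libraries. Its highest library stood 5615-fold above its lowest, and TTN alone held 75.5% and 66.2% of the 39 genes' reads in knockdowns 2 and 4, against 65.1% and 68.3% in controls 1 and 3. TTN exons share 15.6% of their bases with other annotated genes, the antisense TTN-AS1 among them, and the strand setting of the counting is not given in the sources used here. NEB (chr2:151485336-151734487, minus strand) encodes nebulin, which runs along the thin filament of skeletal muscle. It had 6.01, 3535, 16.7 and 4540 CPM in the knockdown libraries, against 13560, 689, 14801 and 5 CPM in the control libraries. Knockdown and control values of both genes overlapped. Without TTN and NEB, the other 37 genes still spanned 0.0348%, 0.601%, 0.0214% and 1.11% of counts in the knockdown libraries, against 3.8%, 0.151%, 3.05% and 0.079% in the control libraries.

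The M-band genes MYOM1, MYOM2 and MYOM3 encode myomesins, which crosslink thick filaments. MYOM1 had 0.299, 82.6, 0.384 and 187 CPM in the knockdown libraries, against 795, 10.5, 647 and 7.07 CPM in the control libraries. In control 4, MYOM1 had 368 reads and MYOM2 6, or 1.08 and 0.0163 CPM per kilobase of exon. MYOM3 had 30.5, 123, 23.3 and 150 CPM in the knockdown libraries, against 556, 79.1, 566 and 17.5 CPM in the control libraries. The highest library of MYOM3 was only 32.4-fold above its lowest, where MYOM1 spanned 2657-fold and MYOM2 2338-fold. Its share of the 39 genes' reads was 7.98%, 0.315%, 9.37% and 0.325% in the knockdown libraries, against 0.376%, 1.65%, 0.396% and 2.14% in the control libraries. The shares given last are those of MYOM3, whose exons share 5.7% of their bases with other annotated genes.

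Among the thin-filament genes, ACTA1 varied most between libraries and TPM3 least. ACTA1 (chr1:229431245-229434098, minus strand) encodes the actin of skeletal thin filaments. It had 0.266, 546, 0.165 and 1517 CPM in the knockdown libraries, against 4162, 37.7, 2395 and 0.0961 CPM in the control libraries. Control 1 stood 43304-fold above control 4, where 5 reads were counted. TPM3 (chr1:154155304-154194648, minus strand) encodes the tropomyosin of slow fibres as well as shorter forms found in cells of other types. It had 187, 186, 121 and 395 CPM in the knockdown libraries, against 943, 216, 2635 and 198 CPM in the control libraries. TPM3 stayed above 100 CPM in every library and spanned 21.7-fold, and the gene-level counts do not separate its forms. It held 49% and 48.8% of the 39 genes' reads in knockdowns 1 and 3 and 24.3% in control 4. Actins and tropomyosins have close relatives in the genome, and how reads matching several genes were counted is not given in the sources used here, so both genes' counts are uncertain to that extent. LMOD2 and LMOD3 encode leiomodins, which nucleate actin filaments. LMOD2 ran from 0.0384 to 418 CPM and LMOD3 from 0.115 to 167 CPM, with control 3 highest and control 4 lowest for each.

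Of the 11 Z-disc genes, FLNC and XIRP2 took the most reads on average over the libraries. FLNC (chr7:128830377-128859274, plus strand) encodes filamin C, an actin crosslinker of striated muscle. It had 4.75, 500, 9.33 and 855 CPM in the knockdown libraries, against 3034, 247, 2038 and 3.34 CPM in the control libraries. XIRP2 and XIRP1 encode Xin-repeat proteins that bind actin. XIRP2 had 0.166, 448, 0.165 and 845 CPM in the knockdown libraries, against 2371, 73.6, 1362 and 0.154 CPM in the control libraries. Its lowest library, control 4, was 15418-fold below control 1, where FLNC spanned 907-fold. XIRP1 ran from no read in control 4 to 461 CPM in control 3, at least 7990-fold higher. The filamin and Xin genes were all high in knockdowns 2 and 4 and in controls 1 and 3, so the labels overlapped.

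ACTN2 and ACTN3 encode alpha-actinins, the crosslinkers of thin filaments at the Z-disc, and ACTN3 is known as the form of fast fibres. ACTN2 had 0.133, 323, 0.0549 and 509 CPM in the knockdown libraries, against 1282, 62.2, 1228 and 0.115 CPM in the control libraries. ACTN3 had 0, 0.358, 0.0549 and 1.34 CPM in the knockdown libraries, against 2.01, 0.0647, 0 and 0 CPM in the control libraries. ACTN3 was thus at the low end of detection throughout and was the only gene of the 39 that failed the filter on low counts. MYOZ1 and MYOZ2 encode calsarcins (myozenins), which bind alpha-actinin and calcineurin. MYOZ1 had 2.36, 113, 0 and 196 CPM in the knockdown libraries, against 1065, 9.79, 798 and 0.327 CPM in the control libraries. MYOZ2 had 0.0332, 10.9, 0 and 18.4 CPM in the knockdown libraries, against 63.2, 2.36, 53 and 0.0769 CPM in the control libraries. Neither had a read in knockdown 3, and MYOZ1 exceeded MYOZ2, per kilobase of exon as well, in each of the other 7 libraries.

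The remaining Z-disc genes shared their set of 5 highest libraries, though not the order within it. TCAP, which encodes telethonin, the cap on titin's Z-disc end, ran from 0.0823 to 968 CPM. LDB3 (ZASP or cypher) and PDLIM3 (ALP), PDZ-LIM proteins that bind alpha-actinin, ran from 0.269 to 704 CPM and from 0.308 to 470 CPM. MYOT, which encodes myotilin, had no read in knockdown 3 and 136 CPM in control 3, at least 1652-fold higher. MYOT exons share 7.2% of their bases with other annotated genes. TCAP differed between the highest libraries as few genes did, at 968 CPM in control 1 and 301 CPM in control 3.

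The myosin light-chain genes were nearly silent outside 5 libraries: 30 and 14 reads in all were counted for the 5 genes in knockdowns 1 and 3, and 29 in control 4. MYL2 encodes the regulatory light chain of slow fibres and the heart. It had 0.0997, 86.2, 0 and 294 CPM in the knockdown libraries, against 1894, 28.7, 1810 and 0.0961 CPM in the control libraries. MYL1, the essential light chain of fast fibres, had 0.0332, 251, 0.165 and 497 CPM in the knockdown libraries, against 1498, 46.7, 1289 and 0.192 CPM in the control libraries. Controls 1 and 3 were close for both genes. They were far apart for MYLPF, the regulatory light chain of fast fibres, which had 0.166, 83.9, 0.165 and 384 CPM in the knockdown libraries, against 923, 27.8, 158 and 0 CPM in the control libraries. MYL3, the essential light chain of slow fibres and the heart, went the other way, with 220 CPM in control 1 and 754 CPM in control 3, and ran down to 0.0549 CPM in knockdown 3. MYLK2, the light-chain kinase of skeletal muscle, reached 70.8 CPM in control 1 and had no read in knockdown 3.

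Genes of energy and oxygen supply took many reads, CKM the most of any of the 39 after TTN and NEB on average over the libraries. CKM (chr19:45306414-45322977, minus strand) encodes the muscle creatine kinase, which regenerates ATP at the M-band. It had 0.598, 588, 0.274 and 1360 CPM in the knockdown libraries, against 5523, 40.8, 4519 and 0.577 CPM in the control libraries. MB, which encodes the oxygen store myoglobin, had 1.41, 336, 4.66 and 1293 CPM in the knockdown libraries, against 3260, 54.5, 3015 and 1.85 CPM in the control libraries. CKM spanned 20137-fold and MB 2309-fold. CKMT2, the mitochondrial creatine kinase of striated muscle, ran from 0.714 CPM in knockdown 1 to 204 CPM in control 3.

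The ubiquitin ligase genes, whose products mark muscle proteins for degradation in atrophy, did not follow each other. FBXO32 (atrogin-1) had 92.1, 378, 39.6 and 145 CPM in the knockdown libraries, against 548, 193, 421 and 485 CPM in the control libraries. Its control 4 level was second only to that of control 1, and it spanned 13.8-fold, the smallest range of the 39 genes over the 8 libraries. FBXO32 held 59.4% of the 39 genes' reads in control 4. TRIM63 (MuRF1) had 0.0664, 26.5, 0.658 and 13.6 CPM in the knockdown libraries, against 38.6, 7.96, 40.4 and 0.115 CPM in the control libraries. TRIM63 was thus near 0 in control 4, with 6 reads.

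In the calcium release group RYR1 held the most reads. RYR1 (chr19:38433699-38587564, plus strand) encodes the ryanodine receptor of skeletal muscle. It had 8.92, 827, 5.49 and 732 CPM in the knockdown libraries, against 3446, 144, 2098 and 66.7 CPM in the control libraries. Control 4 stood apart from knockdowns 1 and 3 for RYR1. Its partner genes did not share that step: CACNA1S, the voltage sensor, had no read in knockdown 1 or control 4, and TRDN (triadin), which ties calsequestrin to the receptor, had none in knockdown 3 or control 4. At the top, CACNA1S reached 409 CPM in control 1 and TRDN 478 CPM in control 3. CACNG1, a subunit of the voltage sensor channel, stayed at or below 19.8 CPM in every library.

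The calsequestrins bind calcium inside the reticulum, CASQ1 mainly in fast fibres and CASQ2 in slow fibres and the heart. CASQ1 had 0.133, 49.8, 0.494 and 148 CPM in the knockdown libraries, against 454, 1.83, 370 and 0.115 CPM in the control libraries. CASQ2 had 0.199, 28.7, 0.384 and 32.9 CPM in the knockdown libraries, against 93.4, 21.2, 110 and 0.519 CPM in the control libraries. In control 2 CASQ2 exceeded CASQ1, per kilobase of exon as well, the reverse of knockdowns 2 and 4 and controls 1 and 3. The junctophilins hold the reticulum to the transverse tubule. JPH1 had 8.39, 26.4, 3.26 and 36.6 CPM in the knockdown libraries, against 128, 10.6, 97.1 and 1.29 CPM in the control libraries. JPH2 had 5.56, 111, 0.274 and 56 CPM in the knockdown libraries, against 228, 8.84, 69.7 and 4.61 CPM in the control libraries. JPH2 was the only one of the 39 whose highest pair of libraries was control 1 with knockdown 2. SLN, which encodes sarcolipin, an inhibitor of the reticulum's calcium pump, had 0.0332, 100, 0.11 and 202 CPM in the knockdown libraries, against 1183, 39.8, 371 and 0.115 CPM in the control libraries.

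Shares within pairs of related genes do not depend on how libraries are scaled, and they were compared where at least 100 reads of the pair were counted. MYL2 took 50.7% and 43.4% of the reads of MYL2 and MYLPF in knockdowns 2 and 4, against 67.2%, 50.8% and 92% in controls 1, 2 and 3. Control 3 thus carried mostly the slow form of the regulatory light chain, and Wilson 95% intervals of 91.8% to 92.2% in control 3 and 67% to 67.5% in control 1 did not meet. CASQ2 took 36.6% and 18.2% of calsequestrin reads in knockdowns 2 and 4, against 17.1%, 92.1% and 22.9% in controls 1, 2 and 3. Control 2 stood apart here, with 1310 CASQ2 reads among 1423. MYOZ2 took 1.39%, 8.8% and 8.58% of the reads of MYOZ2 and MYOZ1 in knockdowns 1, 2 and 4, against 5.6%, 19.4% and 6.23% in controls 1, 2 and 3. ACTN3 took at most 0.263% of alpha-actinin reads in any library with 100 reads of the pair, and no read among 39606 in control 3, which allows up to 0.0097% by the Wilson interval.

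TTN and NEB, and the junctophilins, could be compared in all 8 libraries. TTN took 81.9%, 89.3%, 51% and 87.1% of the reads of TTN and NEB in the knockdown libraries, against 87.7%, 79%, 86.8% and 80.9% in the control libraries. Knockdown 3 alone was near parity, from 634 TTN and 610 NEB reads. Per kilobase of exon the mean TTN share was 51.6% in knockdown libraries and 57.2% in control libraries, against 77.3% and 83.6% by reads. JPH2 took 39.9%, 80.8%, 7.75% and 60.5% of junctophilin reads in the knockdown libraries, against 64.1%, 45.6%, 41.8% and 78.2% in the control libraries. Knockdown and control shares overlapped for each pair but MYL2 with MYLPF, where knockdown 2 at 50.7% and control 2 at 50.8% differed by less than their Wilson intervals.

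**Figure D3:**
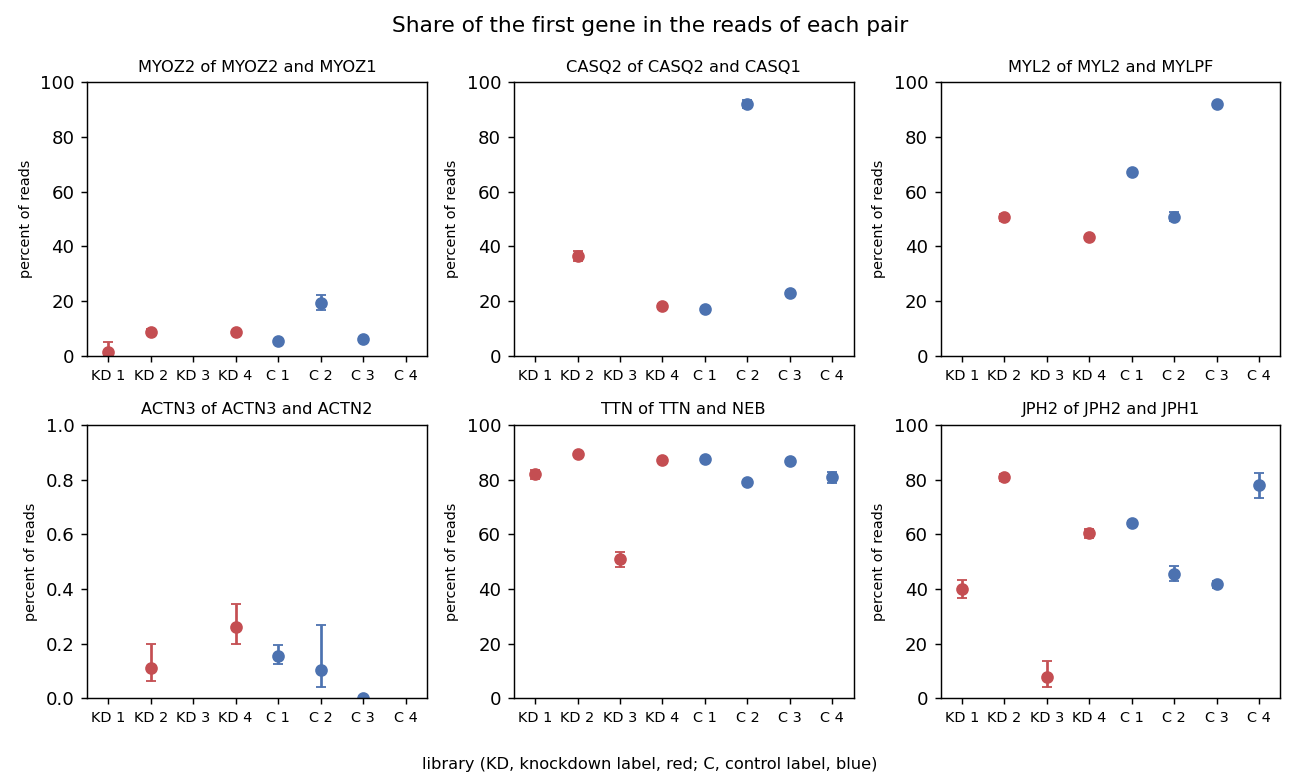
Percent of a pair's reads that belong to its first-named gene, in each library with at least 100 reads of the pair (KD, knockdown label, red; C, control label, blue); bars are Wilson 95% intervals, which cover counting error only, and the ACTN3 panel has an axis of 0 to 1%. CASQ2 stands at 92.1% in control 2 and MYL2 at 92% in control 3, away from the other libraries.

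Read counts rise with transcript length, so levels of different genes were compared per kilobase of GENCODE 29 exon length. On that scale TTN was no longer at the top. In knockdown 4 ACTA1 led at 1011 CPM per kb, ahead of CKM at 819, MB at 596 and TTN at 257 CPM per kb. In control 1, CKM had 3327 CPM per kb, ACTA1 2775, MB 1502, MYL2 1393, SLN 1300 and MYL1 1118 CPM per kb, while TTN had 809 and NEB 444 CPM per kb. SLN, whose exons span 0.91 kb, thus stood above TTN, with 118.98 kb. In control 3 the order of the leading genes was CKM with 2722 CPM per kb, ACTA1 with 1597, MB with 1390 and MYL2 with 1331, while SLN had 407 CPM per kb. In the 3 libraries with the lowest shares TPM3 or FBXO32 led instead: TPM3 at 22.3 and 14.4 CPM per kb in knockdowns 1 and 3, and FBXO32 at 65.6 CPM per kb in control 4. Exon lengths are unions over all annotated transcripts, which understates the level of genes with many unused exons.

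The 2 libraries richest in muscle-gene reads differed in which forms they held. Over the genes the median ratio of control 3 to control 1 was 0.818, and 14 of the 39 were higher in control 3. MYL3, a form of slow fibres, was at 3.43 times its control 1 level, and TPM3, whose reads also include its shorter forms, at 2.79 times. MYLPF was at 0.171 times, JPH2 at 0.306, TCAP at 0.311 and SLN at 0.313 times. Other slow-fibre forms lay near 1, with MYL2 at 0.956, MYOZ2 at 0.839 and CASQ2 at 1.18, as did the fast-fibre forms MYL1 at 0.861, CASQ1 at 0.815 and MYOZ1 at 0.749. TTN and NEB were almost level between these libraries, at 1.01 and 1.09. The contrast of MYL3 with MYLPF was therefore not shared by every pair of slow and fast forms. Between the knockdown libraries rich in these genes, the median ratio of knockdown 2 to knockdown 4 was 0.589, and 8 of 39 were higher in knockdown 2. FBXO32 at 2.6, JPH2 at 1.99 and TRIM63 at 1.94 were the highest of these ratios, and MYLPF at 0.219 and MB at 0.26 the lowest. Each ratio compares a pair of libraries and has no replicate check.

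**Figure D4:**
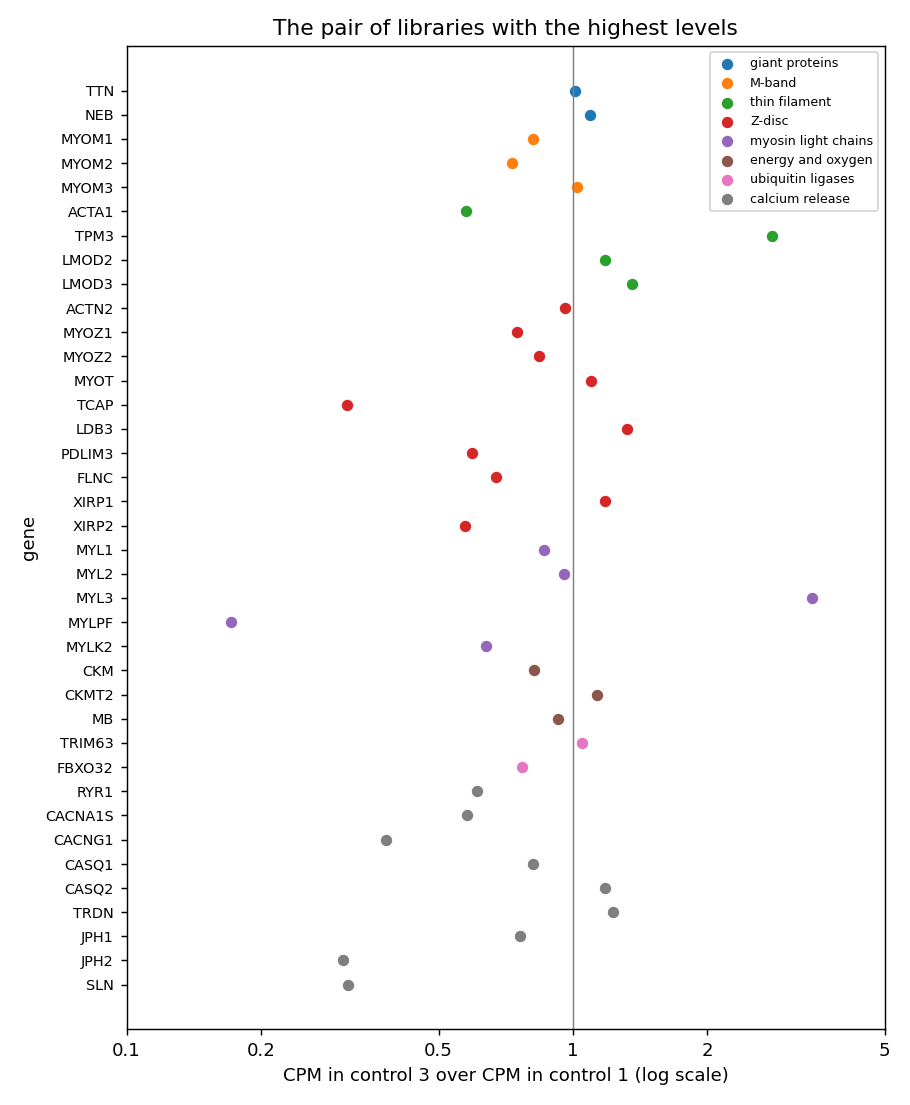
CPM in control 3 over CPM in control 1 for 38 genes (rows, coloured by role) on a log axis; the line marks equal levels, and ACTN3, with no read in control 3, has no point. MYL3 at 3.43 and TPM3 at 2.79 lie farthest right and MYLPF at 0.171 farthest left.

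Knockdown and control libraries were compared with edgeR's quasi-likelihood test over 21192 genes, with Benjamini-Hochberg adjustment. None of the 38 muscle genes tested was called at an adjusted p under 0.05, where 0% of all genes tested were called. All 38 were fitted lower in the knockdown libraries, where 53.2% of all genes were fitted lower, and the 38 fits draw on the same 8 libraries. The median log2 fold change was -2.03, beside -0.05 over all genes tested, and it moved to -3.22 without knockdown 4 and to -1.16 without control 1. Unadjusted, 1 of the 38 had p under 0.05, where 4.78% of all genes did. That gene was TPM3, with a log2 fold change of -1.99 (SE 0.857, unadjusted p = 0.0454, edgeR adjusted p = 0.981), which became -1.08 without control 3. DESeq2 called 0.595% of all genes and none of the 38, and limma-voom called 0%. No muscle gene had knockdown and control libraries that did not overlap, where 2.35% of all genes tested did.

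The fitted differences of the 38 genes came with wide errors. MYL3 had the lowest value, -3.84 (SE 2.48), followed by MYL2 at -3.38 (SE 2.7) and XIRP1 at -3.09 (SE 2.33). JPH2 at -1.06 (SE 1.54), TRIM63 at -1.19 (SE 1.63) and FBXO32 at -1.34 (SE 0.633) were nearest to 0. The log2 fold change of TTN was -1.82 (SE 2.62), that of ACTA1 -1.82 (SE 2.6) and that of RYR1 -2.03 (SE 1.69). The smallest edgeR adjusted p among the 38 was 0.981, and the SE ran from 0.633 to 2.7. By role, the medians ran from -1.26 for the ubiquitin ligases to -2.72 for the light-chain genes, with -1.88 for the giant proteins, -2.54 for the M-band, -2.07 for the thin filament, -2.09 for the Z-disc, -2.04 for energy and oxygen supply and -1.93 for calcium release. Among genes not yet given a fold, MYOM2 stood at -2.69, LMOD2 at -2.14, LMOD3 at -2.34, MYOT at -2.10, LDB3 at -2.64, PDLIM3 at -1.84, MYLK2 at -2.72, CKMT2 at -1.79, CACNA1S at -2.23 and TRDN at -1.83. Without control 1 the fitted values of TCAP, MYLPF, CACNG1 and JPH2 were above 0, at 0.02, 1.07, 0.05 and 0.76, against -1.94, -1.47, -1.39 and -1.06 with all libraries.

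**Figure D5:**
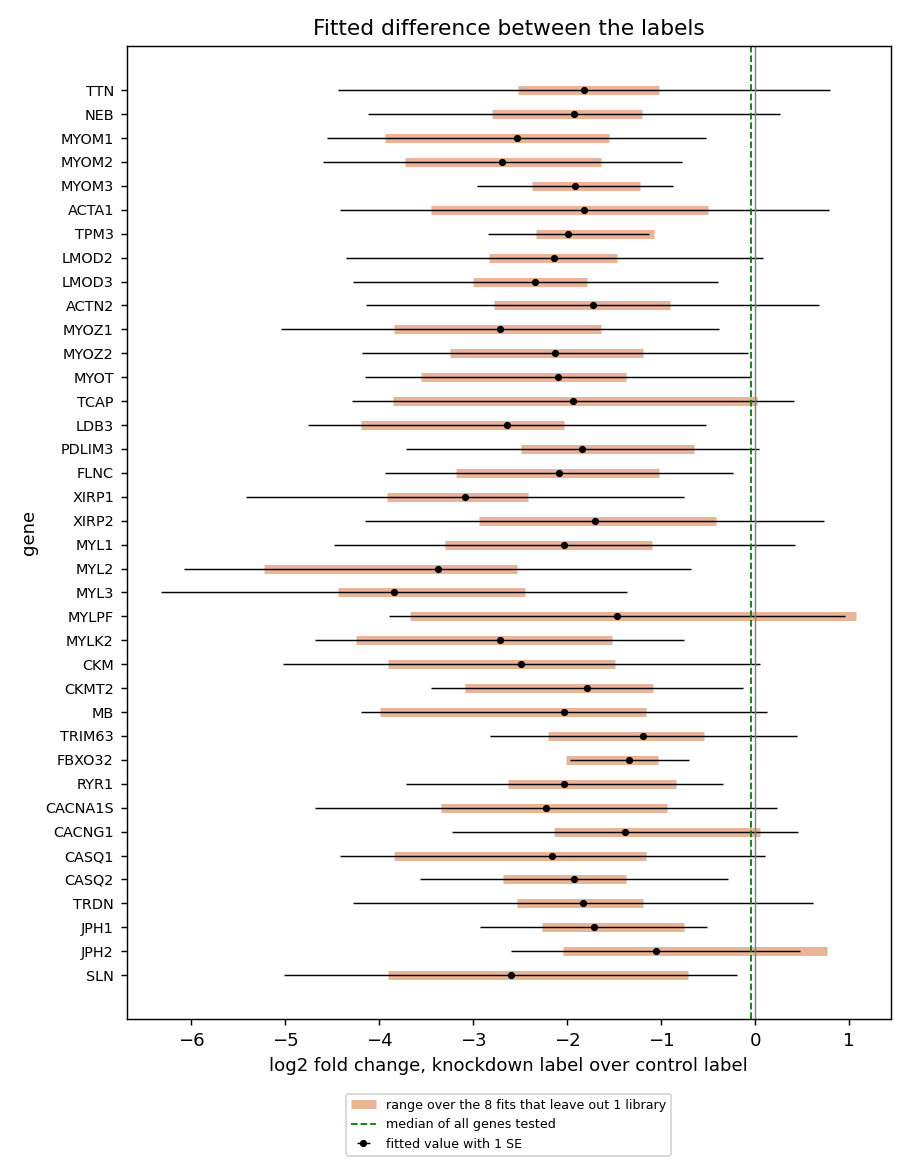
Fitted log2 fold change, knockdown label over control label, for the 38 genes tested (points, with 1 SE as thin lines); thick bars give the range over the 8 fits that leave out 1 library, and the dashed line the median of all genes tested. All points lie below 0, between -3.84 and -1.06, and the bars of TCAP, MYLPF, CACNG1 and JPH2 cross 0.

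Other genes of the same apparatus also differed widely between libraries of a label. Of 40 other sarcomere genes, all were tested, and none was called in either direction by edgeR, DESeq2 or limma-voom. Of these, 1 had an unadjusted edgeR p under 0.05, where 4.78% of all genes tested did. In the knockdown libraries 39 were fitted lower, with a median log2 fold change of -2.07. Over all genes tested, 53.2% were fitted lower, with a median of -0.05, and all of these fits draw on the same 8 libraries. Their summed share ran from 0.0191% to 1.36% in knockdown libraries, against 0.0458% to 4.62% in control libraries. MYH7, the myosin heavy chain of slow fibres, had 0.565, 473, 0.357 and 1560 CPM in the knockdown libraries, against 8617, 28.1, 16450 and 0.327 CPM in the control libraries. MYH2, that of fast oxidative fibres, had 0.532, 1687, 0.576 and 3886 CPM in the knockdown libraries, against 8521, 171, 2927 and 0.365 CPM in the control libraries. MYBPC1, the slow myosin-binding protein C, ran from 0.11 CPM in knockdown 3 to 3630 CPM in control 3. Of 26 other genes of excitation-contraction coupling, 25 were tested and none was called by any of the 3 tools (0 had an unadjusted edgeR p under 0.05). Of the 25, 21 were fitted lower, with a median of -1.76, beside the same 53.2% and -0.05 over all genes tested. ATP2A1, the calcium pump of fast fibres, ran from 0.961 CPM in control 4 to 3223 CPM in control 1. ATP2A2, the pump of slow fibres that other cells also use, had 809, 803, 449 and 925 CPM in the knockdown libraries, against 2031, 982, 3555 and 1091 CPM in the control libraries. It was the only gene of this list whose knockdown and control libraries did not overlap, where 2.35% of all genes tested did not. The edgeR log2 fold change of ATP2A2 was -1.20 (SE 0.594, adjusted p = 0.981). STIM1, a calcium sensor of most cell types, had 202, 164, 217 and 197 CPM in the knockdown libraries, against 135, 201, 148 and 109 CPM in the control libraries, and did not follow the muscle genes.

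Markers of other cell types that a bulk sample could hold were set beside the 39 genes, and their part in these levels was not tested. No gene of any marker list was called by edgeR or limma-voom in either direction. DESeq2 called 1, the adipocyte gene LEP, where it called 0.595% of all genes tested. LEP was low throughout, with 0.0332, 0.261, 0.0549 and 0.219 CPM in the knockdown libraries, against 0.625, 0.453, 6.2 and 0.731 CPM in the control libraries. It was the only marker whose knockdown and control libraries did not overlap, where 2.35% of all genes tested did not. Unadjusted edgeR p-values under 0.05 were found for 4 of 7 fibroblast, 2 of 5 adipocyte, 1 of 5 cardiac and 1 of 4 salivary gland markers tested and for none of the other marker lists, where 4.78% of all genes tested had one. Of 6 genes listed for muscle precursors, all 6 had no read in knockdown 1, knockdown 3 and control 4. Their summed share reached 0.00281% in knockdown libraries and 0.0105% in control libraries. MYF6 reached 66.9 CPM and MYOG 29.1 CPM. The other genes of the list were lower, with PAX7 at up to 8.87, MYOD1 5.16, MYF5 1.74 and MYMK 0.68 CPM, so the sum mainly reflects MYF6 and MYOG. Of 9 cardiac markers, NPPB had no read in any library and NPPA at most 0.439 CPM, and the list summed to 0.000276% to 0.00359% in knockdown libraries, against 0.000496% to 0.00927% in control libraries. MYH6 had 0, 11.8, 0.0823 and 27.1 CPM in the knockdown libraries, against 73, 0.761, 72.3 and 0.0577 CPM in the control libraries. TNNT2 had 2.08, 0, 5.51 and 6.41 CPM in the knockdown libraries, against 0, 0.534, 3.23 and 3.46 CPM in the control libraries. MYH6 was thus highest in the libraries that led for most of the 39 genes, and TNNT2 was not. Smooth muscle markers, led by DES (also made in skeletal muscle, and held by the list of other sarcomere genes) and MYH11, summed to 0.00488% to 0.249% in knockdown libraries, against 0.00368% to 0.501% in control libraries. DES had 965 and 903 CPM in knockdowns 2 and 4, against 3832 and 2724 CPM in controls 1 and 3. In the same libraries MYH11 had 792 and 53.4 CPM, against 735 and 24.1 CPM. ACTG2, CNN1 and ACTA2 were, like MYH11, highest in knockdown 2 and control 1. LMOD1 and MYOCD shared their 4 highest libraries with DES, and SMTN ran from 14.7 to 55.5 CPM.

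Salivary gland markers took 9.7% of counts in knockdown 2 and no more than 0.00074% in any other knockdown library, against 7.31% in control 1 and at most 0.000419% in the other control libraries. MUC5B reached 60244 CPM in knockdown 2 and LCN1 66024 CPM in control 1, so knockdown 4 and control 3, where the 39 genes were high, held few reads of gland markers. Fibroblast markers, led by COL3A1 and COL1A2, summed to 0.0327% to 0.0892% in knockdown libraries, against 0.0717% to 1.06% in control libraries. Both collagens were highest in control 2, at 5116 and 5108 CPM. DCN and PDGFRA were instead highest in knockdown 2, knockdown 4, control 1 and control 3. DCN had 204, 209, 254 and 1271 CPM there, against at most 151 CPM in the other libraries. PDGFRA had 29.7, 47.7, 53.3 and 138 CPM there, against at most 18.2 CPM. LUM, FBLN1 and THY1 each had another set of 4 highest libraries. Leukocyte markers, led by LYZ and CD74, summed to 0.0272% to 1.47% in knockdown libraries, against 0.0365% to 0.942% in control libraries. LYZ made up most of the highest sums, with 14122 CPM in knockdown 2 and 9060 CPM in control 1, the libraries richest in gland markers. CD74, PTPRC and CD3E were instead highest in control 2, at 1260, 75.9 and 16 CPM. CD79A was highest in control 1, at 3.59 CPM, and CD68 stayed at or below 0.329 CPM. Endothelial markers, led by VWF and PECAM1, summed to 0.0208%, 0.0486%, 0.013% and 0.0503% in the knockdown libraries, against 0.0475%, 0.0378%, 0.0376% and 0.0129% in the control libraries. The same 3 libraries as for the 39 genes, knockdown 1, knockdown 3 and control 4, were thus lowest. PECAM1 had 45.5, 156, 32 and 134 CPM in the knockdown libraries, against 136, 139, 121 and 40.2 CPM in the control libraries.

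Adipocyte markers summed to 0.00111% to 0.00665% in knockdown libraries, against 0.00289% to 0.0242% in control libraries, and the members of this list did not move together. FABP4 had 10.9, 17.9, 17.5 and 6.8 CPM in the knockdown libraries, against 6.71, 124, 25.6 and 241 CPM in the control libraries. PLIN1 had 0.0664, 20.8, 0.0823 and 11.2 CPM in the knockdown libraries, against 14.8, 0.324, 104 and 0.173 CPM in the control libraries. Unlike FABP4, PLIN1 was highest in the 4 libraries that led for 36 of the 39 muscle genes. ADIPOQ was likewise counted only in those 4, at 20.8 and 3.78 CPM in knockdowns 2 and 4 and 4.32 and 36.3 CPM in controls 1 and 3. CIDEC had 6.75 and 1.7 CPM in knockdowns 2 and 4 and 2.45 and 15.2 CPM in controls 1 and 3, and at most 0.0498 CPM in the other 4 libraries. By sum, the gland, fibroblast and leukocyte lists did not share their 4 highest libraries with the muscle genes.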

How the data were processed

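The authors deposited 1 table of read counts per gene, whole numbers with no normalisation, in 8 columns that were matched to the labels by group and number (the columns call the treated libraries a knockout, the titles a knockdown). Per the submitters' processing notes the tools were STAR and Subread's featureCounts, on hg38. Their versions, the annotation and the strand setting were not given in the sources used here, so sense and antisense reads cannot be told apart. The labels name polyA RNA, while the protocol describes ribosomal RNA depletion. Of 63241 rows, 17219 held 0 in all libraries.

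CPM are counts scaled to a column total of 1000000. Exon lengths and overlaps come from GENCODE 29, on the same build, and start regions from RefSeq. Knockdown was compared with control in edgeR 4.0.16 (R 4.3.3; TMM factors, filterByExpr, an intercept and the group, quasi-likelihood test, Benjamini-Hochberg threshold 0.05) over the 21192 genes kept, and SE is the size of the log2 fold change over the square root of F. Only the edgeR test was tried on simulated data, with libraries of a label far more alike than these. That trial does not show how the test performs at the spread seen here. Intervals and floors (3 reads) cover counting error only. Alternatives were RLE factors, library totals, DESeq2 1.42.0, limma-voom 3.58.1, other filters, a replicate block and leaving out each library.

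The 39 genes, the lists of other muscle genes and the lists of markers were chosen with earlier results of these data known. Every-library values are given for the 2 genes of highest mean CPM in each role, for the genes of the 6 pairs and for the 3 of smallest range, and other genes by range and fold change. Of the other lists the 3 genes (muscle) or 2 (markers) of highest mean CPM are named. NPPA, NPPB, LEP, ADIPOQ, CIDEC, PTPRC, CD3E, CD79A and CD68 are named beside them, chosen after their values were seen. So were DCN, PDGFRA, LUM, FBLN1, THY1, EPCAM, ITGA6, ACTG2, CNN1, ACTA2, LMOD1, MYOCD, SMTN, PAX7, MYOD1, MYF5 and MYMK. No count of 0 in a library was replaced.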

Additional observations from a re-analysis of the deposited data

Results flagged for a closer look

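ACTN3, the alpha-actinin of fast fibres, had 2.01 CPM in control 1 and at most 0.0647 CPM in the other control libraries, a gap of 0.968 of the group's range that exceeds Dixon's 95% critical value for 4 samples. The value rests on 74 reads. Of 102 groups of 4 values examined this way it was the only one past the critical value, and chance alone passes about 1 in 20 groups.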

How the results depend on the processing

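No muscle gene was called under any of the 15 alternatives, and all 38 kept a negative log2 fold change with RLE factors, library totals, DESeq2, limma-voom, no filter on low counts, at least 10 reads in 4 libraries and the replicate block. DESeq2 called 126 genes of the whole table where edgeR called 0, and leaving out 1 library gave 0 to 1 calls, the 1 without knockdown 2. Without control 1 the log2 fold change turned positive for TCAP (0.02; range over left-out libraries -3.86 to 0.02), MYLPF (1.07; -3.67 to 1.07), CACNG1 (0.05; -2.14 to 0.05) and JPH2 (0.76; -2.05 to 0.76). The median ran from -3.22 to -1.16 over left-out libraries and was -3.22 with the replicate block, which called 0 genes. The replicate numbers did not pair libraries: deviations of same-numbered libraries correlated at -0.66, -0.48, -0.37 and -0.4, and 0 of 8 libraries correlated best with its own number. Per kilobase the TTN share of TTN and NEB fell to 51.6% in knockdown libraries and 57.2% in control libraries, since TTN is longer. Library totals moved the median of all genes from -0.05 to -0.21 and that of the muscle genes to -1.96. Values near 0 in knockdown 1, knockdown 3 and control 4 rest on few reads. These libraries were not the shallowest, with total counts of 60200909, 36458483 and 52018756, against 30684584 in knockdown 2. The spread among 4 libraries a label limits the comparison.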

Other observations

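Among other sarcomere genes, chosen here after their values were seen, the 2 control libraries with the most muscle-gene reads differed as MYL3 and MYLPF did. The ratio of control 3 to control 1 was 1.91 for MYH7 and 0.344 for MYH2, the heavy chains of slow and fast oxidative fibres. For the slow-fibre troponins it was 1.43 (TNNC1), 1.49 (TNNI1) and 1.48 (TNNT1), and for the fast-fibre troponins 0.135 (TNNC2), 0.354 (TNNI2) and 0.207 (TNNT3). TPM1 stood at 0.14 and TPM2 at 0.967, where TPM3 was at 2.79. The perinatal heavy chain MYH8 had 13.1 CPM in control 1 and 384 CPM in control 3. Each ratio compares a pair of libraries with no replicate check.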
